A study of Homo sapiens with 5 samples.

Results

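The interferon-stimulated genes and the RNA sensors that act upstream of them were examined as a group of 41 genes, chosen by symbol. Of these, 39 had at least 1 probe set that carried the symbol alone, out of 22468 genes named in this way on the array, and each gene was represented by its probe set with the highest mean over the 5 arrays. The cells were clones of CP70, a cisplatin-resistant subline of the human ovarian cancer line A2780. In the DDB2 group, 3 clones stably carried pcDNA3.1-His-DDB2, which drives DDB2, a subunit of the damaged-DNA binding complex, and in the vector group 2 clones carried the empty plasmid. All clones were grown in RPMI medium with fetal bovine serum, no interferon or other stimulus is named in the labels, and each line is 1 clone measured on 1 array. Clones are named here by the number in their titles, so that the vector clones are 1 and 3; the source name of vector clone 3 calls it clone 2, and the labels do not tie the DDB2 arrays to the clone names of the study.

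Cells recognise viral RNA through cytosolic helicases such as RIG-I and MDA5, which signal through the adaptor MAVS to the transcription factors IRF3 and IRF7, and these switch on interferon genes. Secreted type I interferon binds its receptor, the kinases JAK1 and TYK2 become active, and a complex that holds STAT2 and IRF9 binds a promoter motif, the interferon-stimulated response element (ISRE). The genes that answer encode proteins that block viral entry, bind or cut viral RNA, or present antigen, and many are also expressed at a resting level in tumour cells without added interferon.

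DDB2 itself had log2 values of 7.84 and 7.25 in vector clones 1 and 3, and of 9.87, 9.00 and 9.14 in DDB2 clones 1, 2 and 3. DDB2 clone 1 thus had the highest DDB2 value. Of the markers of an epithelial ovarian line, KRT8, KRT18, KRT19, VIM, EPCAM and PAX8 lay above the filter, and WT1, EMX2 and CDH1 under it. KRT19 lay close to the filter level, at 4.74 to 4.91, with all DDB2 clones below both vector clones. KRT18, an epithelial keratin, was lowest in DDB2 clone 1 at 6.75 against 8.14 to 8.67 in the others. EPCAM, an epithelial adhesion molecule, passed the study's thresholds with lower values in the DDB2 clones, at 7.26 and 5.86 in the vector clones and at 5.53, 5.44 and 5.29 in DDB2 clones 1, 2 and 3. The part of these markers in the results that follow was not tested. The filter asks for a log2 value above 4.48, the median of the whole table, on at least 2 arrays. None of 5 measured leukocyte markers passed it, and PTPRC, the pan-leukocyte marker, lay between 2.32 and 2.41. The summed log2 level of these 5 markers was 17.3 to 17.6 in the vector clones and 17.1 to 17.5 in the DDB2 clones.

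Most of these genes with a matched promoter carry the ISRE in it, and the stretches that hold it are shown for some of them. Promoters of 300 bases around the gene start were matched by symbol for 32 of the 41 genes in RefSeq (GRCh38.p14), and DHX58, IRF3, IRF7, IFIT2, IFITM2, OAS2, OASL, MX2 and USP18 were not matched. The ISRE core, which is GAAA, any 2 bases and GAAA, was searched on both strands and was present in 21 of the 32, or 65.6%, and in 4.38% of all 27305 genes with a promoter in the table. The gamma-activated site TTCNNNGAA, which reads the same on both strands and can overlap the ISRE core, was present in 11 of the 32, or 34.4%, against 9.38% of all genes. Each stretch is written 5′ to 3′ on the strand of its gene, ends at or before the gene start, and has the ISRE core or its reverse complement in capitals.
IFIT1, chr10:89392495-89392541, plus strand: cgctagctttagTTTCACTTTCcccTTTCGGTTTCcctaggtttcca
IFIT5, chr10:89414511-89414567, plus strand: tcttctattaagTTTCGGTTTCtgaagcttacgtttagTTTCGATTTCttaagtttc
IFITM1, chr11:313988-314021, plus strand: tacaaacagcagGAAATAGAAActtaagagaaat
IFITM3, chr11:320874-320924, minus strand: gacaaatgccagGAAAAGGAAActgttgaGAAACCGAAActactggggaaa
BST2, chr19:17405733-17405772, minus strand: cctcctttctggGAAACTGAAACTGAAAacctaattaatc
IFIH1, chr2:162318816-162318855, minus strand: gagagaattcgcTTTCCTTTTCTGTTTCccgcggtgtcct
IFIH1, chr2:162318685-162318717, minus strand: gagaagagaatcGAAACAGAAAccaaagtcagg

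These stretches hold 1 or 2 whole cores each, and in BST2 and in the first stretch of IFIH1 the cores overlap. A further core that crosses the gene start was left out for IFITM1 and left unmarked for IFIT5. The matched promoters of IFI35, PSMB9 and XAF1, which had lower values in the DDB2 clones, held no ISRE core. Among them only IFI35 held the gamma-activated site. A match describes the letters of the promoter and does not show that a factor binds there.

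No tested interferon-stimulated gene or sensor differed between DDB2 and vector clones by the study's thresholds, namely more than 2-fold together with P under 0.05 before adjustment. The filter left 29 of the 39 genes, and 0 of these 29 passed, where 0.364% of all 15399 genes tested did (0.169% higher and 0.195% lower in the DDB2 clones). By fold alone, 1 gene, BST2, exceeded 2-fold, against 1.28% of all genes. At an unadjusted P under 0.05 from limma alone, IFIT5 had higher values and IFI35, PSMB9 and XAF1 had lower values in the DDB2 clones. That is 1 of 29 higher against 1.36% of all genes, and 3 of 29 lower against 1.55%. XAF1 passed the filter only through the vector clones, where its values were higher. At an adjusted p under 0.05 from limma the count was 0 of 29, as it was for all 15399 genes (0% called), and the smallest adjusted p of the 29 was 0.999. The median log2 fold change was -0.19 over the 29 genes (-0.011 without DDB2 clone 1) and -0.02 over all genes tested, with 20 of the 29 below 0 against 54.6% of all genes, and 9 above 0 against 45.4%. With 2 and 3 clones, 0.1 is the smallest p that a two-sided exact permutation test can reach.

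**Figure D1:**
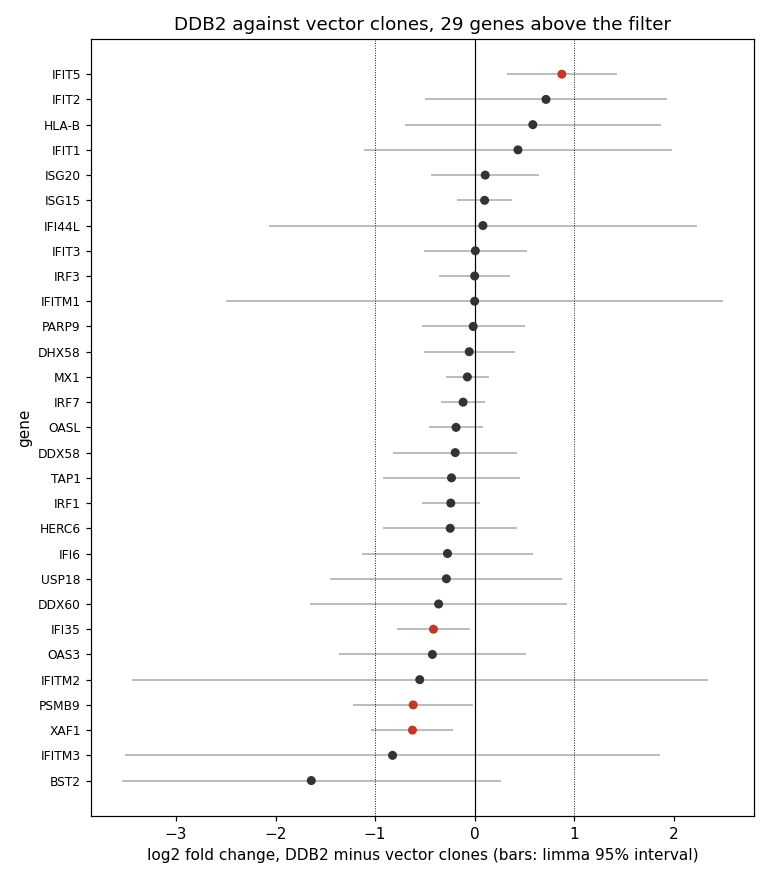
Log2 fold change of DDB2 against vector clones (horizontal axis) for the 29 genes above the filter (vertical axis), with 95% limma confidence intervals as bars and dotted lines at a fold change of 2. Red points mark the 4 genes with an unadjusted P under 0.05, namely IFIT5, IFI35, PSMB9 and XAF1.

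The spread between clones was wide for these genes. The range over the 5 arrays exceeded 1 log2 unit for 14 of the 29 genes, or 48.3%, against 15.0% of all genes tested, and its median was 0.91 against 0.45. DDB2 clone 1 held the lowest of the 5 values for 17 of the 29 genes, or 58.6%, where it did so for 23.0% of all genes, and the highest value for 1 gene, ISG15, against 22.7%. Without the 3 IFITM genes, an exclusion chosen after the values were seen, it was lowest for 14 of 26. DDB2 clone 3, made with the same plasmid, was lowest for 1 gene of the 29 against 21.6% of all genes, and highest for 9 against 19.4%. DDB2 clone 2 was lowest for 5 against 18.8%, and highest for 4 against 12.4%. Vector clone 1 was lowest for 1 against 15.6% and highest for 7 against 18.2%, and vector clone 3 was lowest for 5 against 20.9% and highest for 8 against 27.3%. Set against the mean of the vector clones, the median of the 29 genes was -0.28 in DDB2 clone 1, -0.06 in DDB2 clone 2 and 0.03 in DDB2 clone 3, while over all genes these medians were all -0.02. Genes of a family can share probe sequence, so the 29 genes are not independent of each other, and no test was made of these counts. Of 5 fibroblast markers, DCN and LUM, which encode matrix proteoglycans, were highest in DDB2 clone 1. DCN was at 6.02 there against 2.50 to 4.01 in the other clones, and LUM was at 4.73 against 2.39 to 3.59. COL1A1 and COL1A2, fibrillar collagens, were not highest in that clone, and PDGFRA, a fibroblast receptor, lay under the filter on all arrays, at 3.35 to 3.57. The summed log2 level of the 5 markers was 19.9 to 21.5 in the vector clones and 18.5 to 24.9 in the DDB2 clones, and the part of these markers in the low values of DDB2 clone 1 was not tested.

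**Figure D2:**
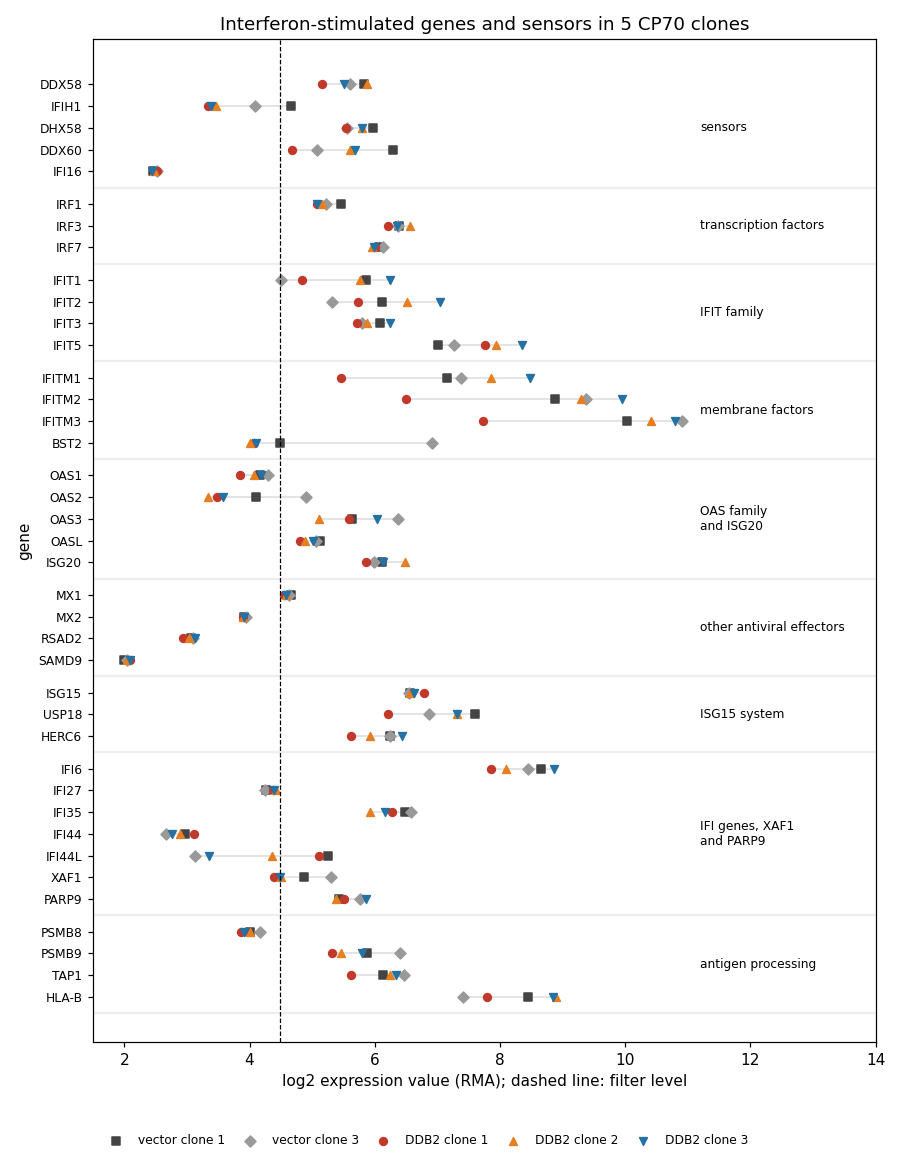
Log2 expression value (horizontal axis) in each of the 5 clones for the 39 genes with a probe set of their own (vertical axis, grouped by role), with the filter level of 4.48 as a dashed line. Red circles, DDB2 clone 1, lie at the low end of the IFITM genes, USP18, HERC6, IFI6 and TAP1, and the grey diamond of vector clone 3 lies apart in BST2.

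**Figure D3:**
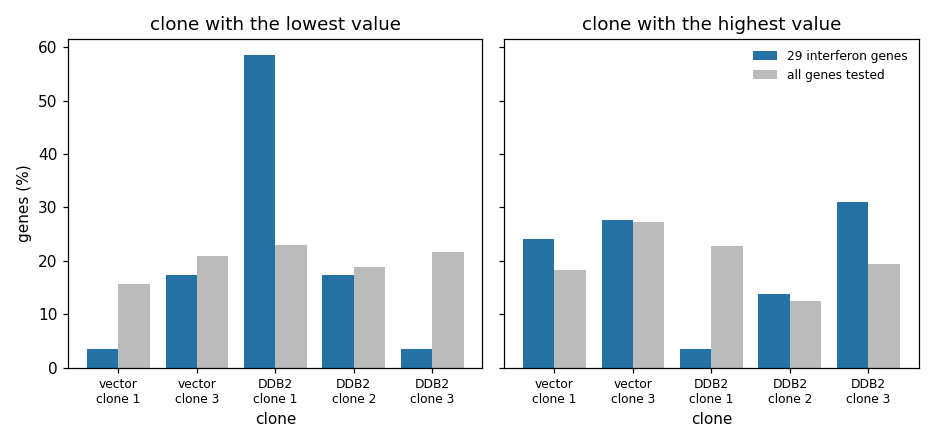
Percentage of genes (vertical axis) for which each clone (horizontal axis) held the lowest value, left, or the highest, right, for the 29 interferon-stimulated genes and sensors above the filter and for all 15399 genes tested. DDB2 clone 1 was lowest for 58.6% of the 29 and for 23.0% of all genes.

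Among the sensors, IFIH1 was lower in all DDB2 clones but near the background, and the others overlapped between the groups. DDX58, which encodes RIG-I, had log2 values of 5.82 and 5.60 in vector clones 1 and 3, and of 5.16, 5.88 and 5.51 in DDB2 clones 1, 2 and 3. DDB2 clone 1 was lowest and DDB2 clone 2 highest, so the groups overlapped, with a log2 fold change of -0.19 (95% confidence interval, CI, -0.82 to 0.43). IFIH1, which encodes MDA5, a sensor of long double-stranded RNA, had 4.66 and 4.09 in the vector pair, against 3.34, 3.46 and 3.38 in the DDB2 clones. The DDB2 clones lay together and 0.62 below the nearer vector clone, but only vector clone 1 exceeded the filter level, so IFIH1 was not tested with the other genes. With no filter its log2 fold change was -0.98 (95% CI -1.45 to -0.50, adjusted p = 1.00 from limma). DHX58, which encodes LGP2, a helicase that tunes the signals of the other sensors, had 5.98 and 5.55 in the vector pair against 5.54, 5.80 and 5.80 with DDB2. These values overlapped, and the log2 fold change was -0.05 (95% CI -0.51 to 0.40). DDX60, a helicase linked to antiviral defence, had 6.29 and 5.08 in the vector pair, against 4.68, 5.60 and 5.68 in the DDB2 clones. The vector clones thus lay farther apart than DDB2 clones 2 and 3 from either of them. IFI16, a sensor of DNA, lay between 2.44 and 2.52 on all 5 arrays, under the filter.

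The transcription factors of the pathway varied little. IRF1, which is induced by interferon gamma, had log2 values of 5.46 and 5.23 in the vector pair against 5.07, 5.16 and 5.07 with DDB2. The groups did not overlap, by a gap of 0.07, and the log2 fold change of -0.24 (95% CI -0.53 to 0.05) did not pass. IRF7, which amplifies the interferon response, had 6.07 and 6.12 in the vector pair against 5.999, 5.95 and 5.98 with DDB2, again without overlap, with a log2 fold change of -0.12 (95% CI -0.34 to 0.11). IRF3, the factor that acts first after sensing, had 6.38 and 6.37 against 6.21, 6.57 and 6.35, with overlap. Its log2 fold change was 0.00 (95% CI -0.35 to 0.36). IRF9 was represented only by a probe set that also carries RNF31, a ubiquitin ligase subunit, and that probe set ranged over 0.14 log2 units, from 6.26 to 6.40, and STAT2 was not analysed here.

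The IFIT genes encode proteins that bind viral RNA, and the 4 measured here lie side by side among the tested genes of chromosome 10. IFIT5 had log2 values of 7.005 and 7.27 in vector clones 1 and 3, and of 7.77, 7.93 and 8.34 in DDB2 clones 1, 2 and 3. All DDB2 clones lay above both vector clones, by at least 0.50, and IFIT5 was the 1 gene of the 29 with this order, against 5.93% of all genes. The difference was 1.84-fold, or 0.88 on the log2 scale (SE, the standard error, 0.21, 95% CI 0.33 to 1.43, adjusted p = 0.999 from limma), which is under the fold change of 2. Without vector clone 1, P for IFIT5 was 0.06 from limma. The other IFIT genes did not share this order. IFIT1 had 5.86 and 4.50 in the vector pair, against 4.83, 5.77 and 6.25 in the DDB2 clones. IFIT2 had 6.11 and 5.31 in the vector pair, against 5.73, 6.51 and 7.04 in the DDB2 clones. In both genes vector clone 3 was lowest, DDB2 clone 3 was highest and the groups overlapped. Their log2 fold changes were 0.44 (95% CI -1.11 to 1.99) for IFIT1 and 0.72 (95% CI -0.50 to 1.93) for IFIT2. Without DDB2 clone 1, IFIT2 reached 1.06 and passed both thresholds, as 1.41% of all genes then did, against 0.364% with all arrays. Without vector clone 3, IFIT1 turned to -0.24 and IFIT5 reached 1.01. IFIT3 ranged from 5.72 to 6.24, with DDB2 clones at both ends.

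The IFITM genes, which encode membrane proteins that hinder the fusion of viruses with the cell, were low in a single clone. IFITM3 had log2 values of 10.03 and 10.91 in vector clones 1 and 3, and of 7.74, 10.40 and 10.80 in DDB2 clones 1, 2 and 3. IFITM2 had 8.88 and 9.38 in the vector pair, against 6.49, 9.29 and 9.95 in the DDB2 clones. IFITM1 had 7.15 and 7.38 in the vector pair, against 5.46, 7.85 and 8.48 in the DDB2 clones. In all 3 genes DDB2 clone 1 lay below the other 4 clones, by 4.91-fold for IFITM3, 5.24-fold for IFITM2 and 3.22-fold for IFITM1 when set against the next lowest clone. Gaps of this size below the other arrays were found in DDB2 clone 1 for 18, 16 and 33 of the 15399 genes tested, each count including the gene itself. DDB2 clones 2 and 3 lay among or above the vector clones. The comparison of the groups therefore turned on DDB2 clone 1, since the log2 fold changes were -0.82 for IFITM3, -0.55 for IFITM2 and, with both group means at 7.27, none for IFITM1, and were 0.13, 0.49 and 0.90 without that clone. None of these values passed the thresholds. The sequences of these genes are alike, so their probe sets may in part read the same transcripts. In bulk RNA, fewer expressing cells and less RNA per cell cannot be told apart.

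The genes beside the IFITM cluster did not share the low values of DDB2 clone 1. IFITM2, IFITM1 and IFITM3 lie side by side on chromosome 11 in RefSeq order, and the 8 genes above the filter on each side were read in chromosome order, a view chosen after the values were seen. Relative to the mean of the other 4 clones, DDB2 clone 1 was at -2.88 for IFITM2, -2.26 for IFITM1 and -2.80 for IFITM3. For the 16 neighbours this difference ran from -0.31 to 0.50, with a median of -0.04. IFITM5, the bone-specific gene of the family and the next gene on one side, was at -0.05, and B4GALNT4, the next gene on the other side, was at -0.31.

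**Figure D4:**
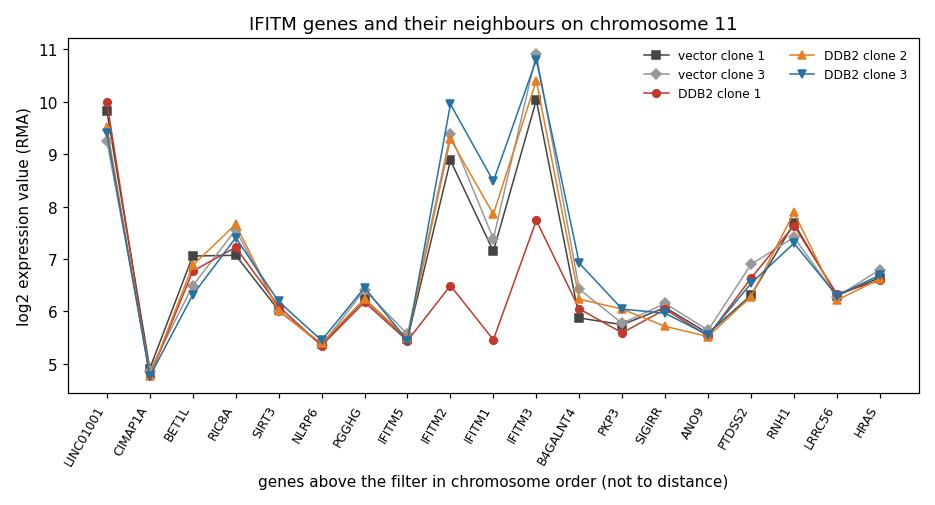
Log2 expression value (vertical axis) in each of the 5 clones for IFITM2, IFITM1, IFITM3 and the 8 genes above the filter on each side, in chromosome order and not to distance (horizontal axis). DDB2 clone 1, in red, lies below the other clones at the 3 IFITM genes and differs from their mean by -0.31 to 0.50 at the neighbours.

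BST2, which encodes tetherin, a protein that holds budding viruses on the cell, was high in a single clone as well, but in the vector group. It had log2 values of 4.48 and 6.92 in vector clones 1 and 3, and of 4.07, 4.005 and 4.11 in DDB2 clones 1, 2 and 3. Vector clone 3 stood apart from the other 4 clones, which lay at or under the filter level, so the sizes of the differences rest on values near the background. All DDB2 clones were below both vector clones, and BST2 passed the filter only through the vector clones. The log2 fold change was -1.64 (95% CI -3.55 to 0.27, adjusted p = 0.999 from limma), and it was -0.42 without vector clone 3 and -2.86 without vector clone 1.

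Of the OAS family, enzymes that sense double-stranded RNA and make a small nucleotide messenger, OAS2 was lower in all DDB2 clones at values near the background. OAS2 had log2 values of 4.10 and 4.91 in the vector pair, against 3.49, 3.33 and 3.57 in the DDB2 clones. The groups did not overlap, but only vector clone 3 exceeded the filter level. With no filter OAS2 was the 1 gene of the group that passed the study's thresholds, with a log2 fold change of -1.04 (95% CI -1.70 to -0.38, adjusted p = 1.00 from limma). OASL, a family member without the enzyme activity, had 5.13 and 5.06 in the vector pair against 4.81, 4.89 and 5.01 with DDB2. Its groups lay 0.05 apart, with a log2 fold change of -0.19 (95% CI -0.46 to 0.08). OAS3 ranged from 5.11 to 6.37 and OAS1, under the filter, from 3.85 to 4.29, both with overlap between the groups. ISG20, an exonuclease of RNA, ranged from 5.86 to 6.48, with DDB2 clones at both ends.

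The other antiviral effectors were close to the background. MX1, a dynamin-like GTPase that traps viral nucleocapsids, had log2 values of 4.67 and 4.62 in the vector pair against 4.56, 4.58 and 4.58 with DDB2. All 5 values lay within 0.11, so that the order of the groups, with all DDB2 clones lower, rested on a gap of 0.04. MX2, its relative, had 3.91 and 3.95 in the vector pair against 3.89, 3.90 and 3.91 with DDB2, under the filter and with the groups 0.005 apart. RSAD2, which encodes viperin, lay between 2.94 and 3.12, and SAMD9 between 1.99 and 2.10, both under the filter. In the ISG15 system, ISG15, a ubiquitin-like modifier, ranged from 6.55 to 6.78. USP18, which removes ISG15 and restrains the receptor, ranged from 6.21 in DDB2 clone 1 to 7.59 in vector clone 1. HERC6, a HECT-domain ligase, ranged from 5.62 in DDB2 clone 1 to 6.43 in DDB2 clone 3. The groups overlapped in all 3 genes.

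IFI35 and XAF1 were lower in all DDB2 clones. IFI35 had log2 values of 6.48 and 6.58 in the vector pair, against 6.28, 5.92 and 6.16 with DDB2, and its log2 fold change was -0.41 (SE 0.14, 95% CI -0.78 to -0.05). XAF1, which encodes a partner of the apoptosis inhibitor XIAP, had 4.86 and 5.30 in the vector pair, against 4.40, 4.50 and 4.48 with DDB2, and its log2 fold change was -0.62 (SE 0.16, 95% CI -1.04 to -0.21). At 1.33-fold and 1.54-fold these were under the fold change of 2. P for IFI35 from limma was 0.0700 without DDB2 clone 2, 0.0663 without DDB2 clone 3, 0.0785 without vector clone 1 and 0.139 without vector clone 3, and the values of XAF1 in the DDB2 clones lay at the filter level. IFI44L varied between clones rather than between groups, with 5.25 and 3.13 in the vector pair, against 5.11, 4.36 and 3.35 in the DDB2 clones. Vector clone 1 and DDB2 clone 1 were high, and vector clone 3 and DDB2 clone 3 were low, at values under the filter. IFI27 lay at 4.26 and 4.24 in the vector pair against 4.37, 4.43 and 4.40 with DDB2, under the filter and without overlap. IFI6, a mitochondrial protein that blocks apoptosis, ranged from 7.86 in DDB2 clone 1 to 8.87 in DDB2 clone 3, PARP9 from 5.38 to 5.87, and IFI44, under the filter, from 2.67 to 3.12.

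In antigen processing, PSMB9, a catalytic subunit of the immunoproteasome, was lower in all DDB2 clones. It had log2 values of 5.87 and 6.41 in the vector pair, against 5.31, 5.46 and 5.79 with DDB2, and its log2 fold change was -0.62 (SE 0.23, 95% CI -1.22 to -0.01). P for PSMB9 from limma was 0.113 without DDB2 clone 1, 0.117 without DDB2 clone 2 and 0.219 without vector clone 3, where its log2 fold change was -0.35. The groups lay 0.08 apart, and all 8 probe sets of PSMB9, which are annotated to haplotype versions of the same region and share sequence, gave this order, with log2 fold changes from -0.62 to -0.51. PSMB8, its companion subunit, had 4.01 and 4.18 in the vector clones against 3.86, 4.01 and 3.91 in the DDB2 clones, under the filter and with the groups 0.005 apart. TAP1, a transporter of peptides, ranged from 5.62 in DDB2 clone 1 to 6.46 in vector clone 3. HLA-B, a class I antigen-presenting molecule whose probes are shared in part with other class I genes, ranged from 7.40 in vector clone 3 to 8.89 in DDB2 clone 2, with overlap. In all, 8 of the 29 genes had every DDB2 clone below both vector clones, or 27.6% against 12.5% of all genes, namely BST2, IFI35, IRF1, IRF7, MX1, OASL, PSMB9 and XAF1. BST2 was among these through vector clones alone. XAF1 also passed the filter only through the vector clones, since of the DDB2 clones only clone 2 exceeded the filter level. The gaps of IRF1, IRF7, MX1, OASL and PSMB9 were at most 0.08.

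The interferon pathway around these genes was read from lists of further genes. Of 8 interferon genes, 6 lay under the filter on all arrays, among them IFNB1, the main interferon beta gene, at 2.12 to 2.70, and IFNL1 and IFNL2 had log2 fold changes of -0.03 and -0.01. None of the 14 tested receptors, kinases and brakes had an unadjusted P under 0.05, with log2 fold changes from -0.29 to 0.22 and a median of -0.03. DDB2 clone 1 was lowest for 5 of these 14 genes and highest for 1, IFNAR1, against 23.0% and 22.7% of all genes. JAK1, the kinase shared by interferon receptors, was among the 5, at 7.04 against 7.70 to 8.11 in the others. The part of JAK1 in the low values of that clone was not tested. None of the 11 tested sensing adaptors and kinases passed either, with a median of -0.02. TLR3, the endosomal sensor of double-stranded RNA, had the widest difference, with 7.36 and 5.56 in the vector pair, against 5.36, 5.07 and 3.96 in the DDB2 clones. The groups of TLR3 did not overlap, but its log2 fold change of -1.66 (95% CI -3.49 to 0.16) did not pass, and it passed at -2.56 without vector clone 3.

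Of 27 tested genes in the list of further interferon-stimulated genes, LGALS3BP passed the study's thresholds with lower values, where 0.195% of all genes did, and 26 did not pass. LGALS3BP, a secreted glycoprotein that binds galectins, had log2 values of 7.12 and 7.94 in the vector pair, against 5.96, 6.21 and 6.47 with DDB2, and its log2 fold change was -1.32 (SE 0.30, adjusted p = 0.999 from limma). Every DDB2 clone lay below both vector clones, and LGALS3BP was 2.49-fold lower, but at -0.90 without vector clone 3 it no longer exceeded 2-fold. The median of the 27 was -0.09, with 19 below 0 (54.6% of all genes) and 8 above (45.4% of all genes). DDB2 clone 1 was lowest for 10 of these 27 genes and highest for 4, against 23.0% and 22.7% of all genes. Of 16 tested genes of antigen processing and MHC class I, B2M, the light chain of class I molecules, had 9.95 and 9.71 in the vector pair, against 10.3, 10.6 and 10.3 in the DDB2 clones. Its log2 fold change of 0.58 (SE 0.16) was under the fold change of 2 with all DDB2 clones higher, the other 15 did not pass, and the median of the 16 was 0.06.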

How the data were processed

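Total RNA of 5 CP70 clones was measured on GeneChip Human Transcriptome Array 2.0 arrays, 1 per clone, with 3 DDB2 and 2 vector clones grouped by their titles. RMA, run by the authors, covered background, normalization and the summary of probes, so the deposited values are on the log2 scale, as read from their range and array medians of 4.40 to 4.45; the genome build of their probe annotation is not given in the sources used here. After 2995 control entries were left out of 70523, probe sets above 4.48 on at least 2 arrays were kept, 34141 of 67528. Genes were named from the platform annotation, where 23784 probe sets carry 1 symbol, 1540 several and 42204 none; RefSeq gave aliases, gene order and promoters. DDB2 was compared with vector with lmFit and eBayes of limma 3.58.1 (R 4.3.3), and P was adjusted after Benjamini and Hochberg across the probe sets kept. Code was tested on simulated data. The number of arrays limits the precision, and p-values measure only the spread between these clones. The genes and lists were chosen with earlier results of these data known. Every gene of the group is accounted for; values per clone were given for those with an unadjusted P under 0.05, those without overlap between groups, the 8 with the widest range, and the named sensors and transcription factors, with values of some others added after they were seen. Alternatives were filters, normalization, variance models, replicate blocks, left-out arrays, thresholds and probe set choice. Figures were drawn with matplotlib 3.10.9.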

Additional observations from a re-analysis of the deposited data

How the results depend on the processing

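With no filter, or a filter at the 25th percentile, 1 gene (OAS2) passed the study's thresholds, against 0.343% and 0.379% of all genes, and 2 genes lay above both vector clones with every DDB2 clone. The filter at the 25th percentile left 36 genes. Of these, 6 had P under 0.05 from limma and 12 lay below both vector clones, against 4 and 8 of 29 as reported. The 12 include IFIH1, OAS2, MX2 and PSMB8, all near the background, and the groups of MX2 and PSMB8 lay 0.005 apart. With a filter at the 75th percentile, which left 14 genes, 1 had P under 0.05, 1 lay below both vector clones and DDB2 clone 1 was lowest for 9 (filters chosen after the values were seen for this last count). For the filters at the 25th and 75th percentiles, the shares over all genes are not given for these counts, which therefore have no baseline here. At a fold over 1.5, 3 genes passed, against 1.06% of all genes. Among the other pathway genes, 2 had P under 0.05 in the comparison as reported, 4 with equal variances, 8 with the replicate block by source-name number and 5 with the replicate block by title number. The shares of all genes at P under 0.05 are not given for these settings, so these counts have no baseline here. In the same order, 0.364%, 0.143%, 0.591% and 0.403% of all genes passed fold and P together. With 1 DDB2 array left out, 0 to 1 genes passed the thresholds (0.292% to 1.41% of all genes). With any 1 array left out, 1 to 6 genes lay above and 8 to 12 below every vector clone that was left. Fewer arrays make such an order easier to reach for any gene, and the shares over all genes are not given for these counts. The median log2 fold change ran from -0.24 to -0.011 (the latter without DDB2 clone 1), and DDB2 ran from 1.5 to 2.08.

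Of 304 log2 fold changes under other settings, 297 kept direction and call. Those that reversed were IFITM1 at 0.0125 with centred arrays, IRF3 at -0.0249 and IFIT3 at -0.0110 with quantile normalization, IFIT3 at -0.1401 with the replicate block by source-name number, and IRF3 at -0.0962, ISG20 at -0.0565 and PARP9 at 0.0894 with the replicate block by title number. With 1 array left out, 122 of 145 kept direction and call and 12 genes reversed, with ranges of -0.27 to 0.16 (DHX58), -0.96 to 0.24 (DDX60), -0.24 to 1.11 (IFIT1), -0.14 to 0.15 (IFIT3), -0.61 to 0.90 (IFITM1), -1.24 to 0.49 (IFITM2), -1.40 to 0.13 (IFITM3), -0.10 to 0.085 (IRF3), -0.06 to 0.26 (ISG20), -0.65 to 0.0845 (USP18), -0.97 to 1.14 (IFI44L) and -0.18 to 0.15 (PARP9). IFIT2 (1.06 without DDB2 clone 1) then passed the thresholds, as 1.41% of all genes did. BST2 was at -2.86 without vector clone 1 and IFIT5 at 1.01 without vector clone 3, each with 1 vector clone left. TLR3 passed with the replicate block by title number (-1.80) but not by source-name number (-1.24). IFI35 had P above 0.05 from limma with equal variances (0.0627), a filter at the 75th percentile (0.0525) and the replicate blocks by source-name (0.0984) and title number (0.0982), PSMB9 with equal variances (0.107), centred arrays (0.0552) and quantile normalization (0.0529), and B2M with the replicate block by source-name number (0.0576). The cause was not tested.

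Whether the numbers in the labels pair the clones was not tested. Deviations of same-numbered clones from their group means correlated at 0.13 and 0.34 by title, over only 2 shared numbers. The correlation was -0.25 for the number 2 of the source names. With 2 vector clones the vector deviations are exact opposites, so these correlations are not independent and cannot decide the pairing. Where 1 vector clone was left, it was assumed to vary like the others. The precision is limited by 5 arrays, and values near 4.48 are near the background.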
